A study of Mus musculus with 6 samples.

Results

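The Cdx, Gdf11 and Lin28 genes set the timing of body axis formation, and 6 of them (Cdx1, Cdx2, Cdx4, Gdf11, Lin28a and Lin28b) were followed here in the mouse tailbud. They were taken by symbol from the 35591 rows of the expression table, and all 6 passed the filter on low reads that left 14134 genes for testing. RNA was sequenced from dissected tailbuds of FVB/NJ embryos with 8 somites. The libraries came from 3 Smchd1+/+ embryos (WT) and 3 embryos homozygous for MommeD43, an Smchd1 missense allele found in a chemical mutagenesis screen for altered transgene silencing. The comparison asks whether the mutant SMCHD1, a chromatin protein that silences clustered genes including Hox genes, comes with altered expression in the tissue that forms the vertebral column. Every library is a separate embryo, with no treatment or transgene named for it. Replicate 1 of each group is a male and replicates 2 and 3 are females. The males have the same mother, whereas each of the 4 females has a mother of her own.

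CDX proteins are homeodomain transcription factors, made in the posterior of the embryo under the control of Wnt, FGF and retinoic acid, which keep axial progenitors going and activate Hox genes of the trunk. GDF11 is a secreted ligand of the TGF-β family. It acts in the tailbud through activin receptors and SMAD proteins, turns on posterior Hox genes, and starts the change from trunk to tail. LIN28 proteins bind RNA, block the maturation of let-7 microRNAs and are high in early progenitors, where they help set how long the tail keeps growing.

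The tissue was checked first. The 10 fixed markers of tailbud and presomitic mesoderm were all tested, and their summed level was 486 to 702 RPKM (reads scaled to exon length and library size) in WT and 506 to 603 RPKM in MommeD43. A source entry in the labels reads NSCs, but of 6 markers of brain and neural stem cells only Fabp7 passed the filter, and Otx2 was at or below 0.129 RPKM in every library. Somite, heart and hindgut lists summed to at most 3.71, 3.05 and 127 RPKM. Markers of other tissues differed between libraries: 7 yolk sac endoderm genes summed to 132 to 273 RPKM in WT and 35.8 to 424 RPKM in MommeD43, and 7 primitive erythroid genes to 8.92 to 484 and 22.6 to 220 RPKM. Allantois and lateral mesoderm genes summed to 133 to 149 RPKM in WT and 132 to 157 RPKM in MommeD43, and trophoblast genes to 2.18 to 3.33 and 2.70 to 21.6 RPKM. In such bulk tissue, fewer cells of a type and less RNA per cell cannot be told apart. Smchd1 itself lay between 7.31 and 8.58 RPKM in WT and between 7.15 and 7.94 RPKM in MommeD43. A missense allele leaves the transcript in place, so this level does not check the genotype. Xist was at 27.3 RPKM or more in the libraries labelled female and at 0.0153 RPKM or less in those labelled male, and 4 Y-linked genes had 0 reads in the females. Library totals ranged from 10957916 to 47298348 reads, and the deepest was MommeD43 replicate 2.

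The substrate of the LIN28 proteins can be seen in the let-7 precursors. RefSeq (GRCm38.p6) listed 10 mouse let-7 hairpins with a mature 5p arm, which gave 8 different mature sequences, and all 10 carry the same seed, the bases by which a microRNA finds its targets. Mature sequences are shown 5′ to 3′ with the seed (bases 2 to 8) in capitals, since this shared stretch is why the family can act on a common set of messages.
let-7a-5p: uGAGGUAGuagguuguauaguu
let-7d-5p: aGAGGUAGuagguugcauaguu
let-7g-5p: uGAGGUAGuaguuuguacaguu
LIN28 recognises a GGAG motif in the loop of the precursor. Between the mature 5p and 3p arms, 8 of the 10 hairpins held GGAG and 2 did not. The loop is shown for a hairpin of each kind, with GGAG in capitals: let-7g from chr9:106178840-106178927 (plus strand) and let-7c-2 from chr15:85706603-85706697 (plus strand).
let-7g loop: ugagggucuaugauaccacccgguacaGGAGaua
let-7c-2 loop: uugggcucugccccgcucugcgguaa
The let-7 RNAs themselves were not analysed here, since the libraries were made from polyA RNA and 0 let-7 rows were used.

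The 6 genes fell into a wide range of levels. On the RPKM scale, averaged over the 6 libraries, Lin28a was highest with 273.9, followed by Cdx4 with 237.9, Cdx2 with 164.9, Cdx1 with 75.9, Lin28b with 21.8 and Gdf11 with 13.3. Lin28a ranked 119th and Gdf11 3958th by level among the 14134 genes tested, so that even the lowest of them exceeded 72.0% of tested genes. Neighbours in this order were compared within libraries by an exact sign-flip permutation test (two-sided), adjusted over 5 pairs. The order was itself set by the mean levels in these same libraries, so the tests are no separate observation of it. Here 6 libraries allow a smallest p of 0.03125. Cdx4 exceeded Cdx2 1.43-fold, Cdx2 exceeded Cdx1 2.29-fold, Cdx1 exceeded Lin28b 3.30-fold and Lin28b exceeded Gdf11 1.65-fold. Each of these held in 6 of 6 libraries (exact p = 0.03125, the smallest possible, adjusted p = 0.0391). Lin28a and Cdx4 did not differ beyond their spread. Their difference was 0.22 ± 0.23 on the log2 RPKM scale (SD, n = 6), with Lin28a higher in 5 of 6 libraries (exact p = 0.0625). A part of Lin28a's exons, 5.86%, is overlapped by a gene on the other strand, Gm13061, and no other exon of the 6 genes is shared. With exon lengths cut to the unshared part, the difference between Lin28a and Cdx4 was 0.31, with an exact p of 0.03125. The reads could not be counted again over those exons. The cut therefore only raised Lin28a by the same amount in every library, and this p is no further test of the order.

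**Figure D1:**
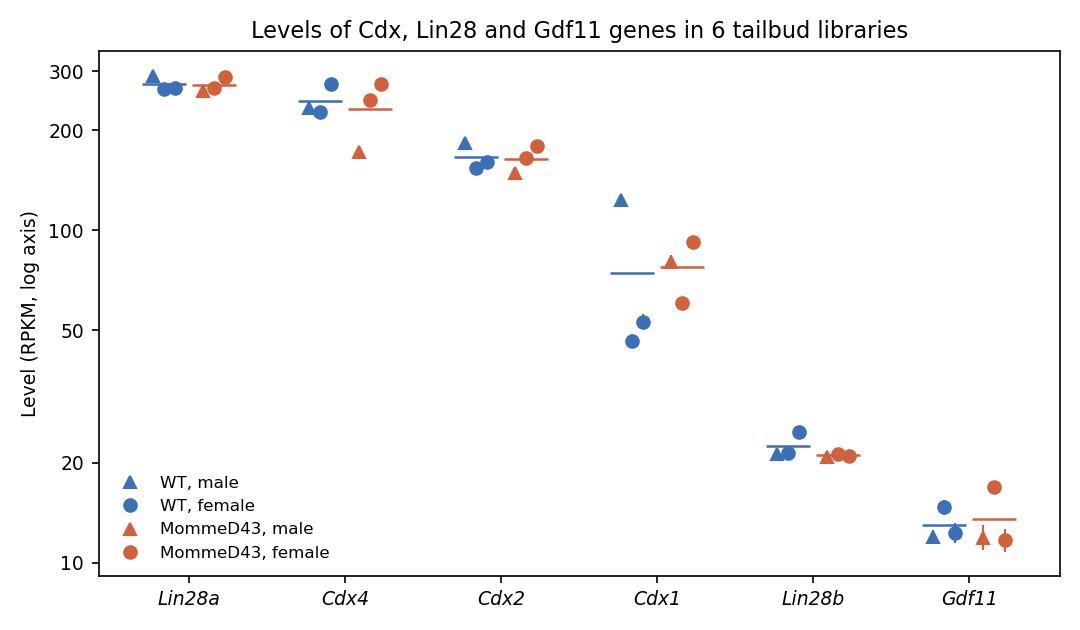
Level of each gene (RPKM, log axis) in 6 tailbud libraries. Each point is an embryo, triangles are males and circles females, vertical bars are exact 95% counting intervals (often smaller than the point), and horizontal lines are group means. WT and MommeD43 points overlap for every gene, and Cdx1 spreads most, from 46.5 to 122.9 RPKM.

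Cdx1 (ENSMUSG00000024619, GRCm38 chr18:61018862-61036199, minus strand) is a Wnt and retinoic acid target and was the most variable of the 6. It measured 122.9, 46.5 and 53.1 RPKM in WT replicates 1 to 3 and 80.3, 60.3 and 92.2 RPKM in MommeD43 replicates 1 to 3. The WT male was highest and the WT females were lowest, with all 3 mutants in between, so the groups overlapped. Counting error was far smaller than this spread: the exact 95% interval of the WT male was 120.2 to 125.7 RPKM, from 7877 reads. The mean was 74.2 ± 42.3 RPKM in WT and 77.6 ± 16.1 RPKM in MommeD43 (SD, n = 3 each). On the log2 RPKM scale the SD of Cdx1 over the 6 libraries was 0.53, more than in 90.6% of tested genes, whose median SD was 0.14.

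Cdx2 (ENSMUSG00000029646, chr5:147300805-147307270, minus strand), which is also needed for trophoblast and hindgut identity, was much steadier. Its level was 182.7, 154.1 and 160.6 RPKM in WT and 148.2, 164.5 and 179.5 RPKM in MommeD43. Again the WT male was at the top, here beside MommeD43 replicate 3, and the MommeD43 male was lowest. The group means were 165.8 ± 14.9 and 164.1 ± 15.7 RPKM (SD, n = 3 each), and the highest library was 1.23-fold above the lowest.

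Cdx4 (ENSMUSG00000031326, chrX:103321398-103330592, plus strand) is the X-linked member of the family. It measured 232.8, 226.8 and 275.5 RPKM in WT and 171.5, 245.7 and 274.8 RPKM in MommeD43. The MommeD43 male stood below the other 5 libraries, while the highest female of each group had nearly the same level. Means were 245.0 ± 26.6 RPKM in WT and 230.7 ± 53.3 RPKM in MommeD43 (SD, n = 3 each).

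Added up, the Cdx genes reached 538.3, 427.5 and 489.2 RPKM in WT and 400.0, 470.6 and 546.5 RPKM in MommeD43. Cdx4 gave the largest share in all 6 libraries, between 42.9% and 56.3%. The share of Cdx2 was nearly constant, from 32.8% to 37.0%. The share of Cdx1 was 22.8%, 10.9% and 10.9% in WT and 20.1%, 12.8% and 16.9% in MommeD43. The share of Cdx1 was, within each group, highest in the male.

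The stretches before the start of Cdx2 and Cdx4 are printed because these genes had adjacent levels and had in common the octamer ATGCAAAT, the motif of POU factors such as OCT4. RefSeq promoter windows (GRCm38.p6) matched 5 of the 6 genes. The 250 bases before each start were searched on both strands for 6 motifs, some of them picked after the sequences had been read. The starts are those of RefSeq and differ from some gene ends given here. The Lin28b window, chr10:45470202-45470451, lies inside the span given for the gene, and the windows of Cdx2 and Lin28a overlap their genes slightly. The octamer occurred in Cdx2 (147 bases before the start) and in Cdx4 (93 bases before), in the direction of the gene. It was found in 1.60% of 32851 promoter windows of that length. It is in capitals in the sequences below, 5′ to 3′ along the gene, from chr5:147307250-147307499 (minus strand) and chrX:103321148-103321397 (plus strand).
Cdx2: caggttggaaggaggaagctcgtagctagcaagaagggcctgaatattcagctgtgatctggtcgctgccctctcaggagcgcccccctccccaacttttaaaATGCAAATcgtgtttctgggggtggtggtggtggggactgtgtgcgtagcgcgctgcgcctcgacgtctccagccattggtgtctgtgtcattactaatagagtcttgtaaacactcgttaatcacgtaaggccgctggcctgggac
Cdx4: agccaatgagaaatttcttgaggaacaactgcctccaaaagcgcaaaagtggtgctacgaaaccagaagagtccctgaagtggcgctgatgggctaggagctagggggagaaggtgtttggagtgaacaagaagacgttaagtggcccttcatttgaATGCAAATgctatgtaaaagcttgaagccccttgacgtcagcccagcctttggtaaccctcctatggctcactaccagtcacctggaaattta
Of the other motifs, the TCF/LEF word CTTTGAA was in Lin28a (4.46% of windows), and CTTTGAT was in none of the 5 (3.21% of windows). The CDX word TTTATG was in Lin28b (10.8%), TATAAA in Gdf11 (12.4%), and CCAAT in all but Lin28a (33.8%). The words do not overlap each other here. GC content was 81.2% for Gdf11, 61.2% for Lin28a, 55.2% for Cdx2, 48.4% for Cdx4 and 39.2% for Lin28b, against a median of 52.4% over all windows. A match is only a run of letters and says nothing of binding.

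Gdf11 (ENSMUSG00000025352, chr10:128882295-128891718, minus strand) was the lowest of the 6. It measured 12.0, 14.7 and 12.3 RPKM in WT and 11.9, 16.9 and 11.7 RPKM in MommeD43. A female of each group, replicate 2, was highest, and the other 4 libraries lay within each other's exact 95% counting intervals (10.9 to 12.97 RPKM for the shallowest). The SD was 1.51 RPKM in WT and 2.97 RPKM in MommeD43 (n = 3 each). MommeD43 replicate 2 is also the library with the highest trophoblast sum, and erythroid genes summed to 484 RPKM in WT replicate 2 and 220 RPKM in MommeD43 replicate 2, beside 205 RPKM in WT replicate 3. The part of these cells in the Gdf11 level was not tested.

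Lin28a (ENSMUSG00000050966, chr4:134003330-134018841, minus strand) was the steadiest of the 6, with an SD of 0.064 on the log2 RPKM scale over the 6 libraries. Its level was 290.4, 266.4 and 267.0 RPKM in WT and 262.8, 267.9 and 288.9 RPKM in MommeD43. The WT male and MommeD43 replicate 3 were highest, and the MommeD43 male was lowest, the same ranking of the 6 libraries as for Cdx2. Means were 274.6 ± 13.7 and 273.2 ± 13.8 RPKM (SD, n = 3 each).

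Lin28b (ENSMUSG00000063804, chr10:45376620-45486395, minus strand), a paralogue of Lin28a that also blocks let-7, measured 21.2, 21.4 and 24.7 RPKM in WT and 20.8, 21.3 and 21.0 RPKM in MommeD43. The mutants lay close together and WT replicate 3 stood above all others. WT replicate 2 was just above the highest mutant, and WT replicate 1 lay within the range of the mutants. Means were 22.5 ± 1.96 and 21.0 ± 0.268 RPKM (SD, n = 3 each). Per length, Lin28a exceeded Lin28b 10.8-fold to 13.7-fold, and Lin28b gave 6.79% to 8.47% of the summed Lin28 level.

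None of the 6 genes passed the test between genotypes. limma with a mean-variance trend called 0% of the 14134 genes at an adjusted p under 0.05, with 343 genes (2.43%) at an unadjusted p under 0.05 and 0 of the 6 among them. voom on recovered reads also called 0, with 439 genes at an unadjusted p under 0.05. WT and MommeD43 did not overlap for 7.07% of tested genes, but overlapped for each of the 6. The log2 fold change (MommeD43 minus WT) of Cdx1 was 0.19, with a 95% interval of -0.59 to 0.96, that is from 0.665-fold to 1.94-fold. For Cdx4 it was -0.11 (-0.49 to 0.27) and for Cdx2 -0.02 (-0.22 to 0.19). For Gdf11 it was 0.04 (-0.30 to 0.39). The narrowest bounds were those of Lin28a, -0.01 (-0.15 to 0.13), and of Lin28b, -0.09 (-0.25 to 0.07). The adjusted p from limma was 1.0 for all 6. As a ratio, the interval of Lin28a ran from 0.902-fold to 1.1-fold. On simulated data for this comparison, 93% of genes changed 2-fold and 72% of genes changed 1.5-fold were recovered. At each of these folds 10 unchanged genes were called too. Every simulated gene had the same spread, the median SD within groups of well-read genes, and independent noise. The recovery therefore does not cover genes of wider spread, such as Cdx1, Cdx4 and Gdf11. Their SD on the log2 RPKM scale over the 6 libraries was 0.53, 0.25 and 0.22, beside a median of 0.14 over all tested genes. That median is over all 6 libraries and is not the simulated spread. Sign was not stable to single libraries for Cdx1, Cdx2, Cdx4, Gdf11 and Lin28a. Without WT replicate 1 the log2 fold change of Cdx1 was 0.62, and without WT replicate 2 it was -0.08.

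**Figure D2:**
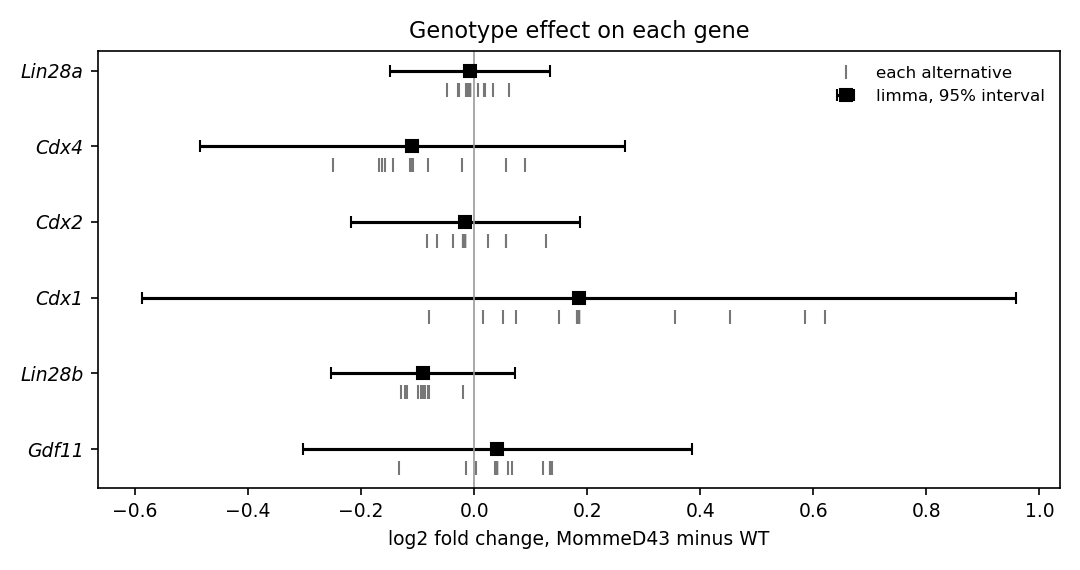
log2 fold change (MommeD43 minus WT) of each gene. Squares with bars are limma estimates with 95% intervals from 3 against 3 libraries, and grey ticks below each are the values under the alternatives. Every interval includes 0, and the interval of Cdx1 is the widest (-0.59 to 0.96).

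The genotype difference was then set apart by sex, as each genotype had 1 male and 2 females. Sex and mother cannot be told apart here, and the male contrast is a single pair. The spread in this fit therefore comes from the 4 females alone (2 residual degrees of freedom), and the males are assumed to vary like them. This holds for every interval, SE and adjusted p given by sex below. In females the log2 fold change was 0.59 for Cdx1 (95% interval 0.15 to 1.02), 0.13 for Cdx2 (-0.03 to 0.29) and 0.06 for Cdx4 (-0.19 to 0.31). In the male pair it was -0.61 for Cdx1 (-1.23 to 0.00), -0.30 for Cdx2 (-0.53 to -0.08) and -0.44 for Cdx4 (-0.80 to -0.09). None of these passed in the male pair, with an adjusted p from limma of 0.657 for Cdx1, 0.452 for Cdx2 and 0.515 for Cdx4, and in females the adjusted p was 0.529, 0.592 and 0.878. The male pair minus the females came to -1.20 for Cdx1 (SE 0.32), -0.43 for Cdx2 (SE 0.12) and -0.50 for Cdx4 (SE 0.18). The adjusted p from limma, over all genes, was 0.273 for Cdx1, 0.282 for Cdx2 and 0.408 for Cdx4, so none passed. Lin28a (-0.20, adjusted p = 0.539), Gdf11 (-0.07, 0.941) and Lin28b (0.09, 0.842) did not pass either, with 95% intervals of -0.47 to 0.06, -0.80 to 0.65 and -0.26 to 0.43. In this comparison 35 genes (0.248%) passed the adjusted threshold. An unadjusted p under 0.05 together with a lower value in the male pair was found for 5.23% of genes and for 3 of the 6, the Cdx genes. Leaving out MommeD43 replicate 2 put Cdx1 (adjusted p = 4.42e-04) and Cdx2 (adjusted p = 0.029) past the threshold, and leaving out MommeD43 replicate 3 did so for Cdx1 (adjusted p = 0.012). Each of these fits has a lone female in a group, which is assumed to vary like the rest. Without MommeD43 replicate 2 the fit called 621 genes in all, and without WT replicate 3 it called 2.

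**Figure D3:**
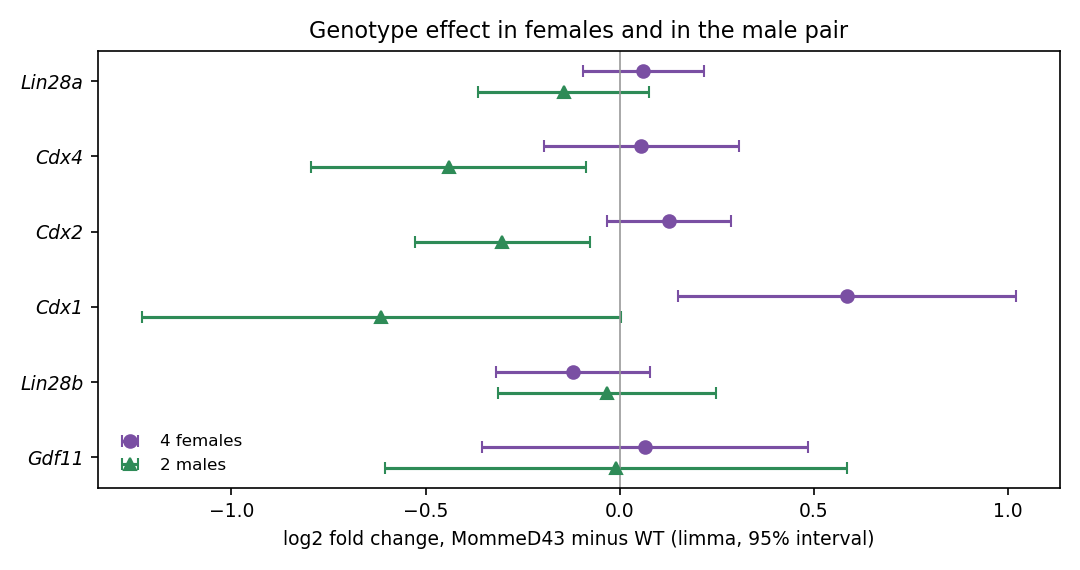
log2 fold change (MommeD43 minus WT) of each gene in the 4 females (circles) and in the male pair (triangles, 1 against 1 library), with 95% intervals from limma whose spread comes from the females alone. The male value is negative and the female value positive for all but Lin28b, and no difference between the sexes passed the adjusted threshold.

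Genes of the network around the Cdx genes were then counted. Of its 15 fixed genes, all were tested, 0 were called between genotypes and 0 had an unadjusted p under 0.05, with a median log2 fold change of 0.01 beside 0.00 for all genes. By sex, 2 of 15 passed the adjusted threshold (0.248% of all genes) and 12 of 15 had an unadjusted p under 0.05 and were lower in the male pair (5.23% of all genes). The median of the male pair minus the females was -0.80, beside -0.01 for all genes. Aldh1a2, which makes retinoic acid and was singled out after its values were seen, was the only gene of the 15 with a positive value (0.59, adjusted p = 0.491). The 2 called were T, the mesoderm T-box factor (-0.91, SE 0.09, adjusted p = 0.0284), and Evx1, a homeobox gene of the posterior streak (-0.91, SE 0.09, adjusted p = 0.0284). Evx1 was singled out after its values were seen. Neither T (adjusted p = 0.252) nor Evx1 (adjusted p = 0.222) passed without WT replicate 2, and without WT replicate 3 the adjusted p was 0.246 for both.

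T measured 188.5, 117.4 and 117.7 RPKM in WT and 120.5, 141.3 and 141.2 RPKM in MommeD43. The WT male was above all others, and the mutants lay above the WT females. Wnt3a, the Wnt ligand that keeps the tailbud progenitors, was at 53.1, 26.6 and 25.9 RPKM in WT and 26.6, 30.4 and 37.5 RPKM in MommeD43, with an adjusted p of 0.0502 for the sex difference. Its overall log2 fold change of -0.09 was the lowest of the list. Wnt8a, a further Wnt ligand, had the highest, 0.32 (SE 0.57), with 16.2, 3.10 and 3.76 RPKM in WT and 8.47, 4.73 and 9.10 RPKM in MommeD43. In voom on recovered reads the value of Wnt8a was -0.17. Fgf8, the tailbud FGF, lay between 28.3 and 45.6 RPKM, and Sall4, a zinc finger factor of progenitors, between 43.5 and 56.9 RPKM, both over all 6 libraries. Cyp26a1, which degrades retinoic acid, lay between 54.0 and 78.1 RPKM and differed by -0.10 between the male pair and the females (adjusted p = 0.878).

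Of the other tissues, yolk sac endoderm moved with the same contrast, and the erythroid sum leaned the same way. Primitive erythroid genes summed to 8.92 RPKM in the WT male and 25.4 RPKM in the MommeD43 male. The WT females had 484 and 205 RPKM and the MommeD43 females 220 and 22.6 RPKM. Hindgut sums stayed between 107 and 127 RPKM, and allantois and lateral mesoderm sums between 132 and 157 RPKM. Most of the hindgut sum came from Cldn6 (66.6 to 76.7 RPKM), and single genes moved in both directions. The male pair minus the females ran from -1.05 (Trh) to 1.04 (Foxa1) in the hindgut list. In the allantois and lateral mesoderm list it ran from -0.51 (Hand1) to 0.95 (Tbx20), and none of either list passed. Yolk sac endoderm genes summed to 132 RPKM in the WT male and 424 RPKM in the MommeD43 male, whereas the WT females had 241 and 273 RPKM and the MommeD43 females 49.7 and 35.8 RPKM. Of the 7, 5 (Ttr, Apob, Afp, Rbp4 and Cubn) passed the adjusted threshold for the difference by sex. The summed tailbud markers ran the other way, with 702 and 506 RPKM in the males, 501 and 486 RPKM in WT females and 600 and 603 RPKM in MommeD43 females. Of the 10 tailbud markers 5 are also in the Cdx network list, so these sums are no separate observation, and 2 of the 10 (T and Msgn1) passed by sex. The markers did not move equally, with differences by sex from -1.36 (Wnt3a) to -0.09 (Hes7). Hes7 was at 23.4 RPKM in the WT male and 31.1 RPKM in the MommeD43 male. Msgn1, Hes7, the yolk sac genes and the single hindgut, allantois and lateral mesoderm genes were named after their values were seen. The part of these tissues in the values of the Cdx genes was not tested.

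**Figure D4:**
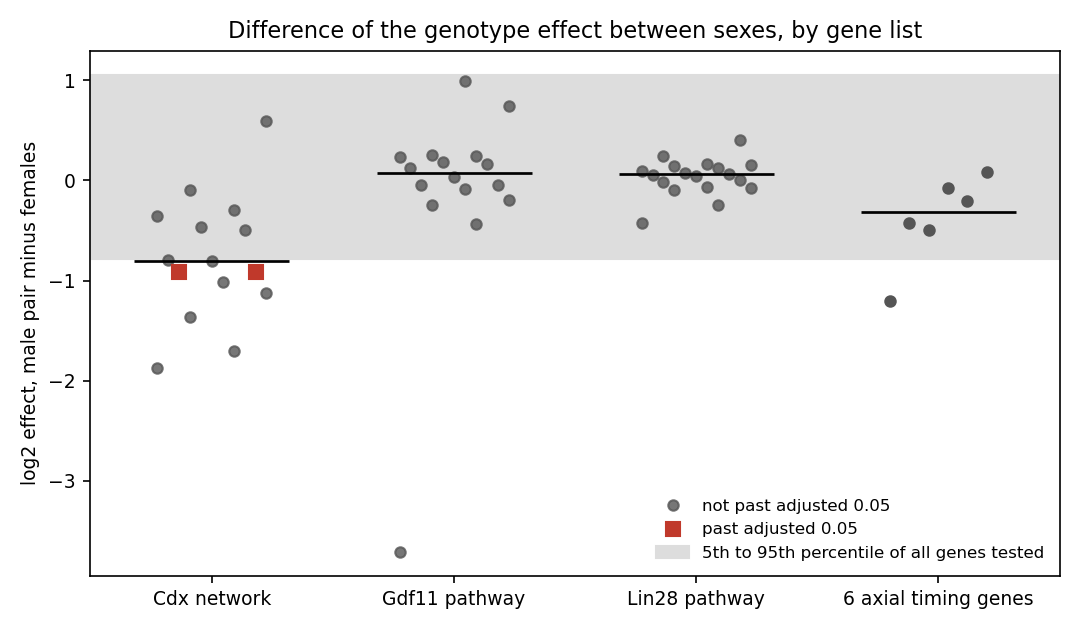
Difference of the genotype effect (log2, male pair minus females) for the tested genes of 3 lists and for the 6 axial timing genes. Points are genes, red squares those past an adjusted p of 0.05, black lines medians, and the grey band the 5th to 95th percentile of all genes tested (-0.78 to 1.06). The Cdx network has a median of -0.80, and the medians of the Gdf11 and Lin28 pathways are 0.08 and 0.06, with single genes of the Gdf11 list from -3.71 (Fst) to 0.99 (Fstl3).

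The Gdf11 pathway list has 20 genes, of which 16 were tested. The other 4 (Mstn, the closest relative of Gdf11, Tll1, Acvr1c and Wfikkn2) were at or below 0.0709 RPKM. Between genotypes 0 of 16 were called and 0 had an unadjusted p under 0.05, with a median log2 fold change of -0.02. By sex 0 were called, and 1 had an unadjusted p under 0.05 and was lower in the male pair, beside 5.23% of all genes. Among the receptors, Acvr2b, the type II receptor of GDF11, ranged from 14.2 to 18.4 RPKM and had the lowest log2 fold change of the list, -0.13 (SE 0.09, adjusted p = 1.0 in limma). Tgfbr1, a type I receptor that GDF11 uses, ranged from 21.4 to 26.2 RPKM. Pcsk5, the protease that cleaves the GDF11 precursor, was low, from 0.902 to 1.36 RPKM. Wfikkn1, a secreted inhibitor of GDF11, had the highest log2 fold change, 0.23 (SE 0.22). That value was 0.04 in voom on recovered reads, 0.07 without MommeD43 replicate 1 and 0.46 without WT replicate 1.

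The secreted antagonist Fst, which binds activins and GDF11, differed most between libraries. It measured 24.4, 1.76 and 1.82 RPKM in WT and 4.77, 2.49 and 8.43 RPKM in MommeD43. The WT male was 13.4-fold to 13.9-fold above the WT females, and the order of the 6 libraries was the same as for Cdx1. The difference by sex was -3.71 (SE 0.85, unadjusted p = 0.00368, adjusted p = 0.197 in limma). Of the downstream genes, Nr6a1, an orphan receptor of the trunk program that GDF11 shuts off, lay between 48.9 and 70.4 RPKM, and Isl1, a GDF11 target of the hindlimb and cloacal field, between 3.34 and 3.97 RPKM. The levels therefore stood with Nr6a1 far above Isl1 in every library.

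The Lin28 pathway list has 19 genes, 18 of them tested. Dgcr8, a partner of Drosha, had 0 recovered reads in every library and no level is drawn from its row. Between genotypes 0 of 18 were called and 0 had an unadjusted p under 0.05, and the median log2 fold change was -0.01. By sex 0 were called, and 2 had an unadjusted p under 0.05, 1 lower in the male pair (5.23% of all genes) and 1 higher (5.74% of all genes). Dis3l2, the nuclease that removes uridylated let-7 precursors, lay between 2.82 and 3.45 RPKM. Trim71, a let-7 target that acts with LIN28 in progenitors, lay between 23.4 and 26.4 RPKM. The oncofetal let-7 target Hmga2 measured 74.5, 108.4 and 103.9 RPKM in WT and 89.8, 103.7 and 90.1 RPKM in MommeD43. It was lowest in the WT male, where Lin28a was highest, and next lowest in the MommeD43 male, where Lin28a was lowest. Igf2bp1, an RNA-binding let-7 target, had the lowest log2 fold change of the list, -0.10 (SE 0.05, unadjusted p = 0.0742 in limma). It measured 75.2, 78.5 and 79.0 RPKM in WT and 74.2, 70.9 and 72.3 RPKM in MommeD43. All mutants lay below all WT, and the groups likewise did not overlap for 7.07% of all tested genes. Mycn, a MYC family factor, had the highest, 0.10 (SE 0.07), with 40.3 to 46.2 RPKM in WT and 43.0 to 49.1 RPKM in MommeD43.

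The patterns of the 6 genes over the libraries were compared with each other and with all tested genes by Pearson's r of log2 RPKM over 6 libraries. This is a description, since the libraries share depth and tissue make-up between genes. Cdx2 and Lin28a were most alike (r = 0.95), while Cdx1 and Cdx4 had an r of -0.13 although they belong to a single family. Cdx1 and Gdf11 ran opposite (r = -0.59), and Lin28a and Lin28b had an r of -0.26.

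The non-member genes closest to Cdx1 were Oasl2 (r = 0.997, on a mean of only 26.3 reads), Wnt8a (r = 0.996) and Spns1 (r = 0.992). An r above 0.95 with Cdx1 was reached by 121 genes, or 0.856%. For Gdf11 only 9 genes exceeded 0.95, with Hoxc9, a Hox gene of the posterior trunk, at the top (r = 0.99), then Dnajc10 (0.96) and Zfp947 (0.96). Hoxc9 measured 5.44, 7.003 and 5.57 RPKM in WT and 5.56, 8.46 and 4.999 RPKM in MommeD43, highest in replicate 2 of each group as Gdf11 was. Cdx2 was closest to Bicdl1, Amph and Caskin2 (r = 0.99 each), and Cdx4 to Rnf216 (0.99), Nme7 (0.98) and Coasy (0.98). Lin28a was closest to Fblim1, G6pdx and Ccdc28a (0.99 each), and Lin28b to Nup107 (0.99), Esf1 (0.98) and Bicd1 (0.98). Lin28b, Nup107, Esf1 and Bicd1 were each highest in WT replicate 3, so a single library weighs heavily in these r. Nup107 was at 38.15 RPKM there and at 35.7 to 36.18 RPKM elsewhere.

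**Figure D5:**
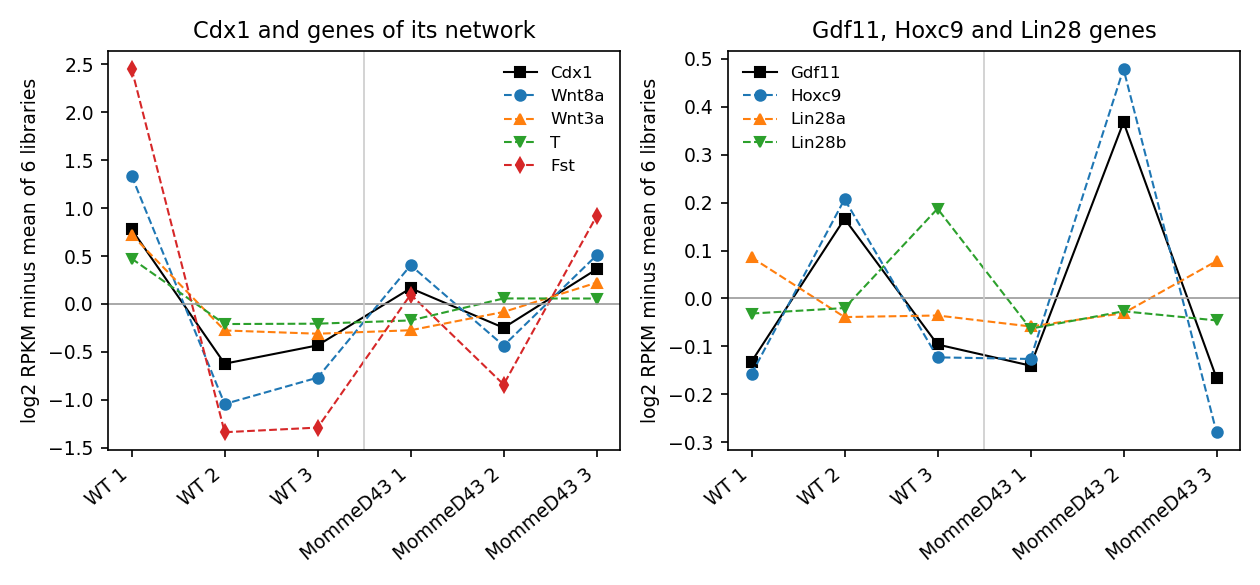
log2 RPKM of each gene minus its mean over 6 libraries, by library. Left, Cdx1 with Wnt8a, Wnt3a, T and Fst, all highest in WT replicate 1. Right, Gdf11 with Hoxc9, both highest in MommeD43 replicate 2, and the flatter Lin28a and Lin28b; lines only join the points of a gene, and the vertical line divides WT from MommeD43.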

How the data were processed

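RNA-seq libraries of 6 tailbuds were used, 3 WT and 3 MommeD43, grouped by their labels. The authors trimmed reads with Trim Galore 0.4.4 and mapped them with HISAT2 2.0.5 to GRCm38, and counted reads per gene in SeqMonk. The deposited values are log2 RPKM, scaled by the authors to exon length and library size; their group means were not used, and 0 columns were left unassigned. Whole reads were recovered with GENCODE M21 exon lengths (98.6% of values above 0 reads were whole within 0.02), with undetected genes at the value of 0.9 read.

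Of 35591 rows, 49 repeats were dropped. Genes were kept where 3 libraries reached the depth of 10 reads in a median library, with 15 reads in all, leaving 14134. limma 3.58.1 (R 4.3.3, trend, no pseudocount, two-sided, Benjamini-Hochberg) was fitted to all of them, then with a mean per sex and genotype (2 residual degrees of freedom). On simulated data, 47.5% of 2-fold and 88.5% of 4-fold differences by sex were recovered. At these folds 8 and 18 unchanged genes were called too. Here too every simulated gene had the same spread and independent noise. Intervals on reads are Clopper-Pearson and cover counting error only. Within groups, the mean chi-square per gene between libraries was 4.77 to 25.1, above sampling noise. Python 3.11.15 with scipy 1.17.1 did the rest.

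Members, lists and the naming rule (6 members, 16 genes fixed by role, the highest and lowest fold change per list, 3 most alike genes per member) were chosen with earlier results of these data known. Alternatives covered scaling, pseudocount, filter, voom, sex, replicate block and each library left out.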

Additional observations from a re-analysis of the deposited data

Results flagged for a closer look

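In an interaction test in limma, 35 of 14134 genes passed the adjusted threshold for a genotype effect in the male pair unlike that in females, none of them among the 6 axial timing genes. The males are 1 library per genotype, so the spread is that of the 4 females alone, and the count ran from 2 to 621 when a female was left out. Within the Cdx network the threshold was passed by T and Evx1, with a difference of -0.91 in each case. Both were higher in MommeD43 than in WT in females (log2 fold changes 0.26 and 0.31) and lower in the male pair (-0.65 and -0.60). Among other markers it was passed by Msgn1 of the presomitic mesoderm (-1.06) and by the yolk sac genes Ttr (4.26), Apob (4.81), Afp (4.58), Rbp4 (3.75) and Cubn (4.85). The males have a mother in common. Without WT replicate 3, of these only Ttr remained past the threshold.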

How the results depend on the processing

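The genotype test called 0 genes in 18 of its 19 alternatives and 11 in females alone. There the log2 fold changes were 0.13 for Cdx2, 0.056 for Cdx4, 0.061 for Lin28a and 0.36 for Wnt3a, against negative values with all libraries. With sample quality weights in voom they were 0.024 for Cdx2, 0.017 for Lin28a and 0.12 for Wnt3a, and in voom on recovered reads Wnt8a was at -0.17. With each library left out in turn, ranges were -0.080 to 0.62 for Cdx1, -0.083 to 0.056 for Cdx2, -0.25 to 0.090 for Cdx4, -0.13 to 0.13 for Gdf11, -0.048 to 0.034 for Lin28a, -0.27 to 0.25 for Wnt3a and -0.13 to 1.07 for Wnt8a. Lin28b stayed negative in all 19, but ran from -0.13 to -0.019, the latter without WT replicate 3, and Wfikkn1 ran from 0.072 to 0.46. The cause of these changes was not tested. Cdx4 has no value among autosomal genes only.

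By sex, 54 genes were called with log2(RPKM + 1), 123 with all genes that had at least 1 read and 129 in voom, against 35. With each female left out the count ran from 2 to 621, and the difference from -1.50 to -0.89 for Cdx1, -0.49 to -0.37 for Cdx2, -0.34 to 0.19 for Gdf11, -0.016 to 0.19 for Lin28b, -0.92 to -0.90 for Evx1 and -0.91 to -0.91 for T. These fits have fewer samples. The order of levels kept 4 pairs past the threshold with log2(RPKM + 1) and had 5 with Lin28a's length cut to its unshared exons. That cut, with no reads counted again, raised Lin28a minus Cdx4 by a fixed amount to 0.31 and is no further test. With 5 libraries the exact p cannot go below 0.0625, so only values were compared. The replicate block gave 0 calls, 321 genes at an unadjusted p under 0.05 against 343, and changed no call. Same-numbered libraries did not deviate together (correlations 0.02, 0.18 and -0.15), and 2 of 6 libraries correlated best with their own number, so the numbers were not taken as pairs. Depth limits Gdf11 most, with a counting error of up to 4.34% in a library.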

Other observations

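Hox genes, the targets of CDX and GDF11, were summarised by paralogue group. The median log2 fold change (MommeD43 minus WT) was 0.10 over 12 tested genes of groups 1 to 4, 0.03 over 15 of groups 5 to 9 and -0.47 over 8 of groups 10 to 13, beside 0.00 for all genes. In limma 0 genes of these groups were called, with 0, 1 and 2 at an unadjusted p under 0.05, beside 2.43% of all genes. Groups 10 to 13 have 12 listed genes, of which 8 passed the filter on low reads. Of these 8, 1 had a positive value, beside 7187 of 14134 over all genes. The group as a whole was not tested, and its genes were not taken as independent.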
